A study of Homo sapiens with 18 samples.

Results

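OVCAR4 is an established human ovarian cancer line, used in the study as a model of high-grade serous ovarian cancer. The comparison described here sets OVCAR4 cells recovered from a 3D omentum culture against OVCAR4 cells grown on plastic. The members are all libraries whose labels name this line: 3 from the 3D culture and 3 from plastic, 6 of the 18 libraries in the series. The other 12 libraries hold the lines Kuramochi, at passages 35 to 45, and OVCAR8, at passages 30 to 40, in the same cultures. The omentum culture was built from primary human omental fibroblasts embedded in collagen I and covered by a layer of primary mesothelial cells. GFP-labelled cancer cells were seeded on it and recovered 48 h later by fluorescence activated cell sorting, and the plastic controls went through a sham sort. In both cultures the OVCAR4 cells were at passages 45 to 55, and the labels list no added agent. The labels number the libraries of each culture 42, 4 and 6, and values per library are given below in that order. The fibroblasts and mesothelial cells were the only host cells, so blood vessels, immune cells and fat cells of an omentum are not modelled.

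The omentum is a fatty fold of the peritoneum and a frequent site of ovarian cancer spread. Cancer cells that land there meet a mesothelial layer over a matrix of collagens, laminins and fibronectin, and bind it through integrins, which also activate latent TGF-beta. Growth on such a matrix differs from growth on plastic in stiffness, in soluble factors from the host cells and in the space to divide.

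The libraries held between 31749269 and 38490218 counts on 3D, against 32314170 to 35562937 counts on plastic. Expression is given as CPM, counts per 1000000 counts of the library after TMM scaling, and changes as log2 fold changes of 3D over plastic with their standard errors. Tests are the quasi-likelihood F-test of edgeR over 22023 genes, with Benjamini-Hochberg adjustment, and a gene rose or fell where the adjusted p was under 0.05. The p-values measure the spread between libraries of the same group, estimated over all 18 libraries in 6 groups of line and culture. Libraries of Kuramochi and OVCAR8 therefore enter it too. Replicates 4 and 6 on 3D were much closer to each other than any other pair of OVCAR4 libraries: the chi-square per degree of freedom of their counts was 1.98, against 32.9 to 82.1 for the other 5 pairs within a culture. They still differed by more than sampling noise and were kept as 2 libraries, and counts with the pair taken as 1 library are given where they change a result. Counts with the replicate numbers as a block in the fit are given on the same terms.

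The epithelial and ovarian markers that define the line were present in every library, with a summed level of 7700, 8020 and 8000 CPM on 3D and 8240, 8450 and 6940 CPM on plastic. Markers of fibroblasts summed to 407, 1630 and 1600 CPM on 3D, against 367, 363 and 336 CPM on plastic. For 12 of these 16 markers every 3D value exceeded every plastic value, beside 25.5% of all genes tested. None of the markers was at 0 on 3D, and DPT, PRRX1, TWIST2, DCN and POSTN were at 0 in every plastic library. The fibroblast sum was high in 3D replicates 4 and 6 and only slightly above plastic in 3D replicate 42. Markers of mesothelial cells overlapped between the cultures, with sums of 164 to 179 CPM on 3D and 160 to 233 CPM on plastic, and RSPO1 was at 0 on 3D. Of 12 mesothelial markers tested, PRG4, CALB2, BNC1, PTGIS and LRRN4 rose (5, or 41.7%, beside 15.2% of all genes) and none fell, and 3 rose with the close pair as 1 library or without any 1 of the OVCAR4 libraries other than 3D replicate 42. With the replicate block 5 rose and 2 fell. Leukocyte markers summed to 27.0 to 39.8 CPM on 3D and 14.7 to 21.1 CPM on plastic, and 2 of 5 leukocyte markers tested, CSF1R and CD68, rose. MS4A1 was at 0 in both cultures, CD3D was at 0 on 3D only, and TYROBP was at 0 on plastic only. Endothelial markers stood at 70.9 to 73.7 CPM on 3D and 58.0 to 79.9 CPM on plastic. Adipocyte markers stood at 4.53 to 5.01 CPM on 3D and 6.09 to 7.30 CPM on plastic, with ADIPOQ, LEP, LPL, FABP4 and CIDEA at 0 on 3D. RNA of host cells in the sorted fraction and expression by the cancer cells cannot be told apart in bulk libraries, and neither can fewer cells of a type and less RNA per cell. The part of the fibroblast, mesothelial and leukocyte signal in the results below was not tested. The level in replicate 42 is given beside those of 4 and 6 as a description of the libraries only.

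Of the 22023 genes tested, 1384 were higher on 3D at a 2-fold minimum, 6.28% of all genes, and 409 were lower, 1.86%. In 25.5% of all genes tested every 3D value exceeded every plastic value, and in 20.6% every 3D value lay below every plastic value. On plastic, 15296 genes averaged 1 CPM or more. Among these expressed genes 623 were higher (4.07%) and 296 were lower (1.94%) at 2-fold. Without a fold minimum 2557 of the expressed genes rose (16.7%) and 2489 fell (16.3%), so calls of any size ran about equally in both directions. Of the 6727 genes under 1 CPM on plastic, 761 were higher (11.3%) and 113 were lower (1.68%). Genes called higher were therefore more often genes with little RNA on plastic, but the split itself favours rises. Plastic values enter both the split and the fold change, and a gene near 0 there has little room to fall. Such a gene could also pass the count filter through another group of libraries, the 3D group included. The level over plastic in 3D replicate 42 was a median of 0.645 times the mean of replicates 4 and 6 for the 623 expressed genes that were higher (quartiles 0.426 and 0.915), and in 115 of them replicate 42 exceeded that mean. For 10 called fibroblast markers with 1 CPM or more on 3D it was a median of 0.103 times (quartiles 0.089 and 0.168). The count of 1793 genes in both directions fell to 893 without plastic replicate 4, to 1106 without 3D replicate 4 and to 1114 without 3D replicate 6. The count of 919 expressed genes fell to 506 without plastic replicate 4. A test against a change of 2-fold itself called 148 genes, of which 138 were higher.

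**Figure D1:**
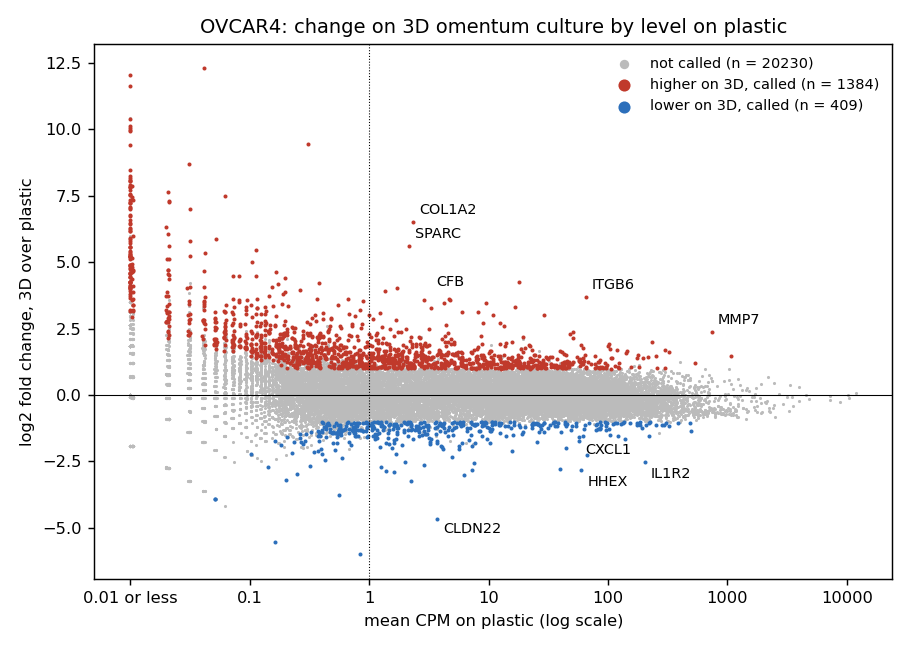
Log2 fold change of each of the 22023 tested genes in OVCAR4 (3D over plastic, y axis) against its mean CPM on plastic (x axis, log scale, 0.01 or less drawn at the left edge), with the 1384 called higher genes in red and the 409 called lower genes in blue. Right of the dotted line at 1 CPM the called changes were mostly within 4 log2 units, and the larger rises sat among genes near 0 on plastic.

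Changes also followed the exon length of the gene. This length counts every base of any annotated exon once, so it can exceed the length of a single transcript. Among 12673 protein-coding genes at 1 CPM or more on plastic, the shortest of 5 equal groups by exon length (207 to 2919 bases) had a median log2 fold change of -0.32, and the longest group (8926 to 70573 bases) had a median of 0.37. In the shortest group 3.91% of the genes rose and 32.7% fell, and in the longest 38.7% rose and 4.42% fell. Spearman's rho across these genes was 0.434 with exon length and -0.238 with GC content, where genes are not independent replicates. The lists below were therefore also counted in a fit corrected for length and GC content, which was chosen after seeing the data and brought the 5 medians to between -0.075 and 0.047.

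**Figure D2:**
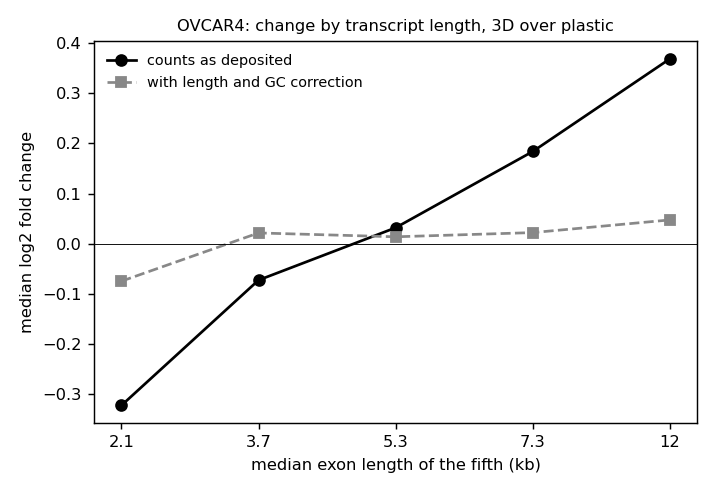
Median log2 fold change in OVCAR4 (3D over plastic, y axis) of 5 equal groups of expressed protein-coding genes ordered by exon length, labelled by the median length of each in kb (x axis). With the counts as deposited (circles) the medians climbed with length, and with the length and GC correction (squares) they stayed between -0.075 and 0.047.

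Among the expressed genes that rose most were a receptor for the matrix and the enzymes that cut and crosslink it. ITGB6, which pairs with the integrin alpha V chain to bind fibronectin and to activate latent TGF-beta, had 339, 1097 and 1129 CPM on 3D, against 86.9, 45.3 and 64.3 CPM on plastic. All 3D libraries lay far above all plastic libraries, and the change was 13.1-fold (log2 3.71 ± 0.40, adjusted p = 6.33e-05). Its partner ITGAV had 372, 613 and 570 CPM on 3D and 256, 123 and 210 CPM on plastic (log2 1.40 ± 0.25, adjusted p = 0.00127). Of 20 integrin genes tested, 7 rose and none fell, beside 15.2% of all genes that rose and 11.9% that fell. With the length and GC correction 6 integrin genes rose and 2 fell, and with the replicate block 10 rose and 1 fell.

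MMP7, matrilysin, a small secreted protease of epithelial cells, was the most abundant of the 623 expressed genes that were higher at 2-fold. It had 3780, 3688 and 3932 CPM on 3D and 395, 980 and 837 CPM on plastic, and the 3D libraries were nearly equal (log2 2.37 ± 0.42, adjusted p = 0.00222). PLAU, the urokinase that activates plasminogen, had 142, 279 and 294 CPM on 3D and 50.1, 49.5 and 45.7 CPM on plastic (log2 2.30 ± 0.25, adjusted p = 3.17e-05). LOXL2, which crosslinks collagen and elastin, had 23.5, 44.7 and 52.4 CPM on 3D, against 7.97, 8.97 and 8.999 CPM on plastic (4.65-fold, adjusted p = 2.85e-05). In all 3 genes replicate 42 on 3D was above every plastic library. SERPINB2, the plasminogen activator inhibitor of type 2, had 1.75, 4.88 and 4.48 CPM on 3D and no count in any plastic library, at least 120.0-fold higher if 3 counts over the plastic group are taken as the floor. Of 36 matrix proteases and inhibitors tested, 22 rose (61.1%) and none fell, beside 15.2% and 11.9% of all genes. Without plastic replicate 4 the number that rose was 14, and with the length and GC correction 20 rose and 2 fell. With the replicate block 24 rose and 1 fell.

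Genes of the basement membrane rose as well. HSPG2, the large heparan sulfate proteoglycan perlecan, had 727, 1104 and 1054 CPM on 3D and 327, 234 and 336 CPM on plastic (log2 1.68 ± 0.27, adjusted p = 0.000791). COL4A1, a chain of type IV collagen, had 986, 1408 and 1366 CPM on 3D, against 701, 350 and 556 CPM on plastic (log2 1.23 ± 0.21, adjusted p = 0.000926). Each of these genes was abundant on plastic and higher in all 3D libraries than in any plastic library. COL7A1, whose product anchors the basement membrane to the tissue under it, changed more, with 56.6, 216 and 226 CPM on 3D and 24.1, 13.4 and 12.2 CPM on plastic (log2 3.33 ± 0.51, adjusted p = 0.000704). LAMC3, the gamma 3 chain of laminin, went the other way with 4.47, 2.36 and 2.00 CPM on 3D and 7.30, 6.89 and 6.66 CPM on plastic (log2 -1.23 ± 0.27, adjusted p = 0.00367). In all, 14 of 23 basement membrane genes rose (60.9%) and LAMC3 alone fell (4.35%), beside 15.2% and 11.9% of all genes. With the length and GC correction 15 rose.

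Matrix genes typical of fibroblasts rose with a wide gap between the 3D libraries. SPARC, which encodes a collagen-binding matricellular protein, had 20.9, 148 and 150 CPM on 3D and 2.13, 1.94 and 2.44 CPM on plastic (log2 5.61 ± 0.58, adjusted p = 4.96e-05). COL1A1, a chain of type I collagen, had 58.9, 494 and 477 CPM on 3D, against 18.1, 18.01 and 18.2 CPM on plastic (log2 4.24 ± 0.73, adjusted p = 0.00159). ACTA2, smooth muscle actin, had 9.77, 37.4 and 37.5 CPM on 3D and 2.41, 1.64 and 1.12 CPM on plastic (log2 4.03 ± 0.74, adjusted p = 0.00232). In each of them 3D replicate 42 stood between the plastic libraries and the other 3D libraries. Of 39 matricellular and elastic fiber genes 16 rose (41.0%) and 1 fell (2.56%), beside 15.2% and 11.9% of all genes. The number that rose was 10 without plastic replicate 4, 9 without 3D replicate 6 and 23 with the replicate block. Mesenchymal genes near silent on plastic were detected on 3D at low levels. ZEB2, a transcription factor of the epithelial to mesenchymal transition that fibroblasts also express, had 0.81, 1.08 and 0.723 CPM on 3D and no count on plastic, at least 28.2-fold higher at the floor of 3 counts over the plastic group. TCF4, another factor of this kind, had 0.47, 0.829 and 0.807 CPM on 3D and no count on plastic, at least 22.7-fold higher at the same floor. In ZEB2 the 3D replicate 42 lay between the other 3D libraries, and the cells that this RNA came from were not tested.

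Some TGF-beta targets and regulators that OVCAR4 expressed on plastic rose. TGFBI, a TGF-beta induced matrix protein that integrins bind, had 53.2, 106 and 107 CPM on 3D and 14.2, 8.64 and 10.03 CPM on plastic (log2 3.02 ± 0.48, adjusted p = 0.000921). PMEPA1, an inhibitor of the pathway that TGF-beta induces, had 46.9, 106 and 111 CPM on 3D and 25.6, 15.3 and 17.1 CPM on plastic (log2 2.19 ± 0.39, adjusted p = 0.00159). SKIL, a repressor of SMAD proteins and itself a target, had 81.8, 147 and 142 CPM on 3D, against 49.9, 34.5 and 43.6 CPM on plastic (log2 1.54 ± 0.19, adjusted p = 0.000125). The receptor-activated SMAD3 rose less, with 72.5, 82.0 and 78.4 CPM on 3D and 55.7, 35.6 and 43.7 CPM on plastic (log2 0.79 ± 0.16, adjusted p = 0.00292). Of 22 genes of the TGF-beta and activin pathway, 9 rose (40.9%), 1 fell (4.55%) and 12 passed neither test, beside 15.2% and 11.9% of all genes. With the length and GC correction 7 rose and 2 fell.

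The BMP branch of the same receptor family moved the other way in most of its called members. HHEX, a homeobox transcription factor and a known BMP target, fell to 12.8, 6.22 and 6.48 CPM on 3D, against 49.95, 64.7 and 64.7 CPM on plastic (log2 -2.81 ± 0.30, adjusted p = 3.17e-05). BMP4, a ligand, had 5.78, 3.76 and 3.17 CPM on 3D and 9.21, 9.15 and 9.03 CPM on plastic (log2 -1.10 ± 0.23, adjusted p = 0.00342). MSX1, a homeobox gene downstream of BMP, had 4.60, 3.12 and 3.53 CPM on 3D and 9.69, 8.14 and 6.22 CPM on plastic (log2 -1.09 ± 0.21, adjusted p = 0.00229). The groups did not overlap for any of these genes. CHRD, which encodes the BMP antagonist chordin, rose with 4.31, 5.48 and 6.15 CPM on 3D and 0.572, 1.64 and 2.00 CPM on plastic (log2 1.92 ± 0.44, adjusted p = 0.00485). The receptor BMPR2 also rose (log2 1.15 ± 0.18, adjusted p = 0.000462). In all, 6 of 21 genes of the BMP pathway fell (28.6%) and 2 rose (9.52%), beside 11.9% and 15.2% of all genes. The number that rose was 5 without plastic replicate 42 and 4 without Kuramochi plastic replicate 2. With the replicate block 9 fell and 4 rose.

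Most genes of the NF-kB list rose. TNFAIP2, a TNF-induced gene, had 630, 1140 and 1190 CPM on 3D and 308, 315 and 348 CPM on plastic (log2 1.61 ± 0.24, adjusted p = 0.000381). NFKBIZ, a nuclear regulator of NF-kB, had 37.4, 37.6 and 39.6 CPM on 3D, against 17.3, 9.57 and 13.4 CPM on plastic (log2 1.51 ± 0.22, adjusted p = 0.0003). BIRC3, an inhibitor of apoptosis that NF-kB induces, had 64.2, 52.7 and 53.3 CPM on 3D and 8.35, 2.35 and 3.56 CPM on plastic (log2 3.58 ± 0.46, adjusted p = 0.000196). Its log2 fold change was 4.26 without plastic replicate 42. CYLD, which removes ubiquitin chains and dampens the pathway, rose too (log2 1.11 ± 0.18, adjusted p = 0.000693). Of 27 genes of the pathway, 17 rose (63.0%) and none fell, beside 15.2% and 11.9% of all genes. In NFKBIZ and BIRC3 the 3D libraries were nearly equal. With the length and GC correction 17 rose, and 13 rose without plastic replicate 4.

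Cytokines and secreted defence proteins followed, with 1 chemokine against them. IL11, a cytokine of the IL6 family, had 5.41, 42.4 and 47.9 CPM on 3D and 2.54, 3.55 and 3.72 CPM on plastic (log2 3.28 ± 0.59, adjusted p = 0.00166). TNFSF10, the death ligand TRAIL, had 31.1, 70.4 and 76.7 CPM on 3D, against 4.89, 11.9 and 10.4 CPM on plastic (log2 2.71 ± 0.49, adjusted p = 0.00174). CSF1, the growth factor of macrophages, had 6.38, 6.79 and 6.93 CPM on 3D and 1.97, 2.71 and 2.66 CPM on plastic (log2 1.45 ± 0.16, adjusted p = 3.17e-05). CSF1 was even across the 3D libraries, while IL11 was much lower in replicate 42 than in the others. CXCL1, a chemokine for neutrophils, fell to 18.4, 16.1 and 17.2 CPM on 3D, against 63.6, 58.5 and 50.2 CPM on plastic (log2 -1.73 ± 0.41, adjusted p = 0.00617). Of 31 chemokines and cytokines 10 rose (32.3%, beside 15.2% of all genes) and CXCL1 alone fell. The number that fell was 3 with the replicate block and 2 without 3D replicate 42 or OVCAR8 3D replicate 4. IL23A, a subunit of interleukin 23 that was not on this list, had 7.34, 11.99 and 11.9 CPM on 3D and 1.84, 0.835 and 1.00 CPM on plastic (log2 3.08 ± 0.34, adjusted p = 3.17e-05).

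CFB, complement factor B of the alternative pathway, had 33.6, 66.4 and 70.6 CPM on 3D and 4.22, 5.25 and 4.44 CPM on plastic (12.2-fold, adjusted p = 0.000225). C1R, a protease of the first complement complex, had 3.32, 6.82 and 6.71 CPM on 3D, against 1.33, 1.88 and 1.22 CPM on plastic (log2 1.92 ± 0.28, adjusted p = 0.000302). LCN2, an iron-binding defence protein of epithelia, had 77.9, 54.1 and 56.6 CPM on 3D and 19.0, 15.8 and 12.4 CPM on plastic (log2 2.00 ± 0.25, adjusted p = 0.000139). LCN2 was highest in replicate 42 among the 3D libraries. Of 18 complement genes 10 rose (55.6%) and 1 fell (5.56%), beside 15.2% and 11.9% of all genes. The gene that fell was CFD, factor D, a call lost without plastic replicate 4 or either of 3D replicates 4 and 6. The number that rose was 5 without plastic replicate 4, 5 without 3D replicate 4 or 6, 6 without plastic replicate 6 or without either of the OVCAR8 plastic replicates 61 and 62, 5 with the close pair as 1 library and 5 with the length and GC correction. Of 20 genes of the IL6 and acute phase list 10 rose and none fell, while 12 rose and 1 fell with the replicate block. Interferon response genes were less firm: 11 of 43 rose (25.6%, beside 15.2% of all genes), and 3 rose without plastic replicate 4. Between 4 and 7 rose without plastic replicate 6 or any 1 of the 3D replicates. The same range held without Kuramochi plastic replicate 4 or OVCAR8 plastic replicate 61. The number that rose was 5 with the close pair as 1 library and 5 with the length and GC correction. It was 16 with the replicate block, 24 with separate fits per line and 30.0 with no low-count filter.

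A receptor, an enzyme and a channel were among the largest falls. IL1R2, the decoy receptor that binds interleukin 1 without signalling, fell to 53.5, 25.9 and 28.3 CPM on 3D, against 211, 221 and 181 CPM on plastic (log2 -2.51 ± 0.29, adjusted p = 6.5e-05). CA2, a carbonic anhydrase, had 10.7, 10.6 and 12.9 CPM on 3D and 59.6, 35.8 and 39.0 CPM on plastic (log2 -1.98 ± 0.37, adjusted p = 0.00181). KCNJ1, a potassium channel of kidney epithelium, had 0.889, 0.797 and 0.612 CPM on 3D and 2.60, 7.81 and 8.34 CPM on plastic (log2 -3.02 ± 0.41, adjusted p = 0.00023). For all 3 genes the highest 3D library was below the lowest plastic library, as for 20.6% of all genes tested. LRIG1, a membrane protein that lowers EGF receptor family signalling, had 44.9, 32.7 and 32.7 CPM on 3D and 87.0, 97.7 and 129 CPM on plastic (log2 -1.51 ± 0.19, adjusted p = 0.000116). The ligand NRG1 had 5.44, 4.18 and 2.67 CPM on 3D, against 10.6, 11.1 and 9.999 CPM on plastic (log2 -1.36 ± 0.21, adjusted p = 0.000525). The receptor for it, ERBB3, rose with 81.2, 129 and 136 CPM on 3D and 48.6, 64.7 and 71.4 CPM on plastic (log2 0.91 ± 0.20, adjusted p = 0.0043). Of 22 genes of the EGF receptor family and its ligands 4 fell (18.2%, beside 11.9% of all genes) and 2 rose (9.09%, beside 15.2%). The other of the 2 was DUSP4, a MAP kinase phosphatase, so that 1 rose without either of 3D replicates 4 and 6, of plastic replicates 4 and 6 or of Kuramochi plastic replicate 4.

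**Figure D3:**
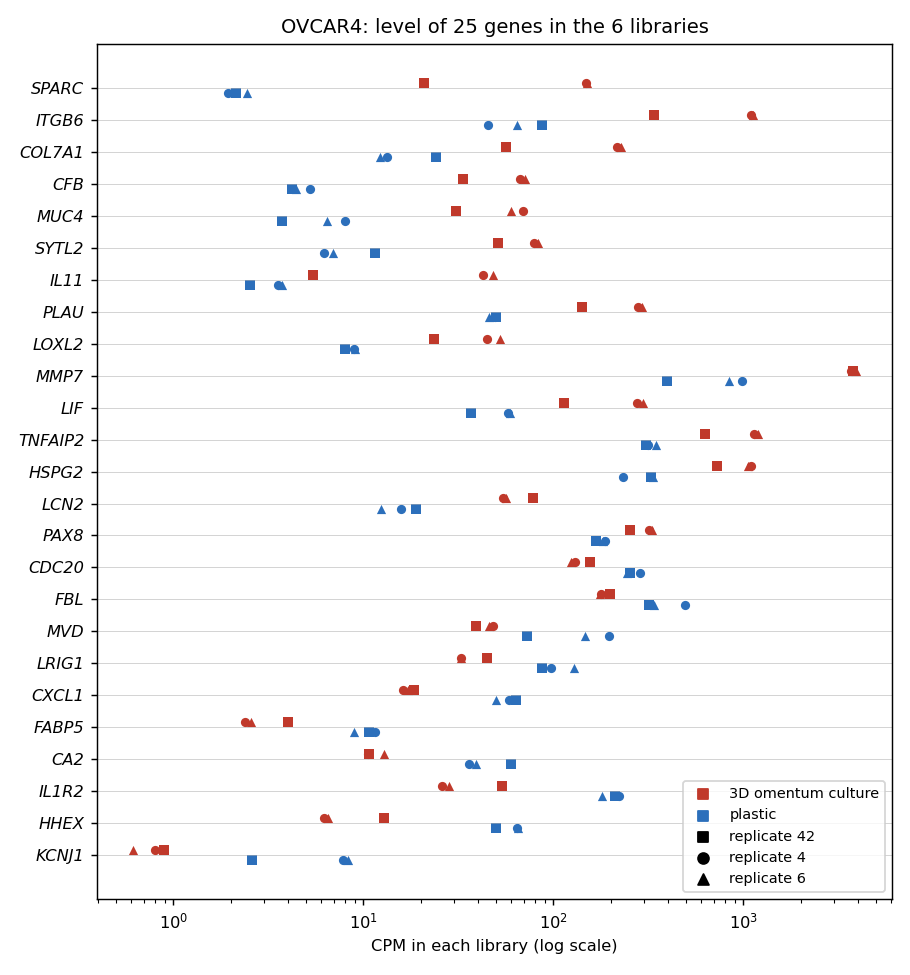
CPM of 25 named genes in each OVCAR4 library (x axis, log scale), with 3D omentum culture in red above plastic in blue on each line and a marker shape for each replicate number. The groups do not overlap for any of these genes, and the naming rule required this of the largest rises and falls. Over all tested genes 25.5% had no overlap and were higher on 3D, and 20.6% had no overlap and were lower. The 3D replicate 42 (squares) stood nearest to plastic for SPARC, ITGB6, COL7A1 and IL11 but not for MMP7 or LCN2.

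Genes of cell division fell together by small amounts. CDC20, an activator of the anaphase-promoting complex, had 156, 130 and 124 CPM on 3D and 252, 287 and 245 CPM on plastic (log2 -0.94 ± 0.16, adjusted p = 0.000926). PTTG1, securin, had 117, 113 and 114 CPM on 3D, against 225, 305 and 226 CPM on plastic (log2 -1.14 ± 0.16, adjusted p = 0.00031). CDT1, which licenses replication origins, had 32.9, 27.1 and 27.1 CPM on 3D and 48.4, 69.8 and 53.4 CPM on plastic (log2 -0.98 ± 0.18, adjusted p = 0.00177). Neither culture overlapped the other in any of these genes. Of 45 genes of G2 and mitosis 29 fell (64.4%), of 45 genes of G1/S and DNA replication 33 fell (73.3%), and none of either list rose. Among all genes 11.9% fell and 15.2% rose. The median log2 fold change was -0.49 in the first list and -0.51 in the second, beside 0.0046 over all genes at 1 CPM or more on plastic. With the length and GC correction 34 and 36 fell. With the close pair as 1 library 19 genes of G2 and mitosis and 16 of G1/S fell, and without 3D replicate 6 19 and 17 fell, while without 3D replicate 4 16 of the G1/S genes fell.

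Promoters of many genes on these lists hold known motifs of the cell cycle, shown here because most tested members fell. The RefSeq promoter (GRCh38.p14, 250 bases before to 50 after the start) was searched on both strands for CCAAT, the box bound by NF-Y, for TTTGAA, the cell cycle homology region (CHR) of mitotic genes, and for TTTNGCGC, an E2F site. No match of one of these motifs can lie wholly within a match of another. Of the 38 promoters found for G2 and mitosis genes, called or not, 73.7% held CCAAT and 71.1% held TTTGAA. These shares were 35.7% and 15.4% over all 27305 promoters. They were 36.9% and 9.39% over promoters of genes at 1 CPM or more on plastic. Both motifs stood in 55.3% of the 38 promoters, in 6.08% of all and in 4.06% of those of expressed genes. The E2F site stood in 42.5% of the 40 G1/S and DNA replication promoters, in 1.83% of all and in 3.0% of those of expressed genes. A match is a description of the letters. PTTG1 held CCAAT but no TTTGAA. Of other members, KIF2C and CDC25C held neither, and CDC45, PRIM1 and CCNE1 held no E2F site. The promoters below were picked for their matches. CDC20 (chr1:43358731-43359030, plus strand) held both of the mitotic motifs and CDT1 (chr16:88803539-88803838, plus strand) held the E2F site, with matches on either strand in capitals:
CDC20: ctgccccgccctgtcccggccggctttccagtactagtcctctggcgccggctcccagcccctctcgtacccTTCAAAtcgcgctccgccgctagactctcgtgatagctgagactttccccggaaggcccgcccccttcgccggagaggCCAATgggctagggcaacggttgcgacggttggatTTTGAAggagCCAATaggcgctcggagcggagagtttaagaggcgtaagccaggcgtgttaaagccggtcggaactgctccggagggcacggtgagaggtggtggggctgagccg
CDT1: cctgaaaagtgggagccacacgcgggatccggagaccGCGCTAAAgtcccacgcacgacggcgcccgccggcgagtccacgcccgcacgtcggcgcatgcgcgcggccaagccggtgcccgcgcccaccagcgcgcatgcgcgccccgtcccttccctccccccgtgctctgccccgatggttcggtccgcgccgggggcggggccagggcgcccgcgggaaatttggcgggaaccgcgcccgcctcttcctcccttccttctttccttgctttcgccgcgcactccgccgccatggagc

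Genes of the machinery of protein synthesis fell too. Of 40 cytosolic ribosomal protein genes 39 fell (97.5%) and none rose, beside 11.9% and 15.2% of all genes. Their median log2 fold change was -0.65. RPL35 had 259, 220 and 231 CPM on 3D and 377, 580 and 380 CPM on plastic (log2 -0.91 ± 0.18, adjusted p = 0.00227). RPS24 had 760, 666 and 677 CPM on 3D, against 1034, 1580 and 1070 CPM on plastic (log2 -0.81 ± 0.16, adjusted p = 0.00236). Plastic replicate 4 had the highest level of both. FBL, the methyltransferase fibrillarin that modifies ribosomal RNA, had 200, 177 and 177 CPM on 3D and 319, 496 and 338 CPM on plastic (log2 -1.06 ± 0.17, adjusted p = 0.000641). MYC, a transcription factor that drives ribosome production, had 66.4, 42.8 and 42.5 CPM on 3D and 93.3, 94.1 and 89.3 CPM on plastic (log2 -0.87 ± 0.16, adjusted p = 0.00176). In the list of ribosome biogenesis and MYC targets, 26 of 34 genes fell (76.5%, beside 11.9% of all genes) and none rose. On this list 15 fell with the close pair as 1 library or without either of 3D replicates 4 and 6. Ribosomal protein genes had a median exon length of 3360 bases against 4730 bases over all expressed genes. In the fit corrected for exon length and GC content 39 of them fell. A dependence on the length of the transcripts expressed was not tested. Ribosomal protein genes also have many processed pseudogenes, and how reads shared with them were counted is not known here.

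Respiratory chain genes of the nucleus fell in the same way. ATP5MC1, a subunit of the ATP synthase, had 62.4, 51.8 and 49.6 CPM on 3D and 109, 136 and 96.7 CPM on plastic (log2 -1.06 ± 0.16, adjusted p = 0.000509). CYC1, cytochrome c1 of complex III, had 222, 191 and 192 CPM on 3D, against 329, 424 and 326 CPM on plastic (log2 -0.83 ± 0.15, adjusted p = 0.00157). Of 41 such genes 31 fell (75.6%) and none rose, beside 11.9% and 15.2% of all genes. With the length and GC correction 30 fell and 1 rose. The number that fell was 16 without plastic replicate 4, without 3D replicate 4, without 3D replicate 6 or with the close pair as 1 library. Of the 13 genes of the mitochondrial genome none fell and MT-ND5 rose, while 1 fell with the replicate block and 4 rose with the length and GC correction. The MT-ND5 call was lost without plastic replicate 4 (adjusted p = 0.0521 against 0.00873).

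Cholesterol synthesis was the metabolic pathway with the largest falls. MVD, which makes isopentenyl diphosphate, had 39.3, 48.01 and 45.9 CPM on 3D and 72.8, 196 and 147 CPM on plastic (log2 -1.64 ± 0.25, adjusted p = 0.000531). FDPS, which makes farnesyl diphosphate, had 240, 235 and 242 CPM on 3D, against 360, 616 and 495 CPM on plastic (log2 -1.04 ± 0.17, adjusted p = 0.000633). DHCR7, the last enzyme of the pathway, had 143, 144 and 148 CPM on 3D and 228, 381 and 374 CPM on plastic (log2 -1.17 ± 0.18, adjusted p = 0.000479). The 3D libraries were nearly equal in each, and the plastic libraries were spread, with replicate 42 the lowest of them. Of 25 genes of cholesterol synthesis and uptake 19 fell (76.0%), 11 of them at 2-fold, and none rose. Among all genes 11.9% fell and 15.2% rose. The median log2 fold change of the list was -0.96. The number that fell lay between 16 and 21 without any 1 of the OVCAR4 libraries and was 18 with the close pair as 1 library and 21 with the length and GC correction. CCAAT stood in 83.3% of the promoters of this list that matched, beside 35.7% of all promoters and 36.9% of those of expressed genes. The site of SREBP known as SRE-1, searched as TCACNCCAC on both strands, stood in 1 of the 18 promoters that matched (5.56%) and in 1.15% of all. The share with CCAAT also varied among lists where no member fell. It was 79.2% of 24 promoters for the unfolded protein response, 83.3% of 18 for HOX genes and 13.3% of 15 for integrins. A high share was therefore not particular to lists that fell. The promoters of MVD (chr16:88663042-88663341, minus strand) and FDPS (chr1:155308616-155308915, plus strand) each held CCAAT 3 times on either strand, in capitals:
MVD: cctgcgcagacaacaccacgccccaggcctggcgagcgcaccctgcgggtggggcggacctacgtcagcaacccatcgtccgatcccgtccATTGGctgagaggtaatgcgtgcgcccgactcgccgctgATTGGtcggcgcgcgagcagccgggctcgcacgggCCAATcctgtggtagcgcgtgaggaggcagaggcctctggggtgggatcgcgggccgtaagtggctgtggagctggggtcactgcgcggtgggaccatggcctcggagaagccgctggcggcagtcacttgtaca
FDPS: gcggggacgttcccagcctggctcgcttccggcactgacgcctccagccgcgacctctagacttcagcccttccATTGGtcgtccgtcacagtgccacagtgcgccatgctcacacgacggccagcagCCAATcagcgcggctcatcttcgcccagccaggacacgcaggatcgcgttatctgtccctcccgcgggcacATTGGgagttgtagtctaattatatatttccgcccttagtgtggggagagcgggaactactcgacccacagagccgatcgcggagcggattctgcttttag

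Other lipid genes moved in both directions. ELOVL6, which elongates fatty acids, had 11.2, 14.7 and 14.2 CPM on 3D and 15.7, 36.9 and 41.7 CPM on plastic (log2 -1.23 ± 0.28, adjusted p = 0.00507). FABP5, a fatty acid binding protein, had 4.00, 2.39 and 2.56 CPM on 3D, against 10.7, 11.5 and 8.87 CPM on plastic (log2 -1.79 ± 0.25, adjusted p = 0.000279). PLIN2, a coat protein of lipid droplets, rose with 4.29, 6.50 and 7.04 CPM on 3D and 0.889, 2.38 and 2.00 CPM on plastic (log2 1.75 ± 0.33, adjusted p = 0.00174). The long-chain acyl-CoA synthetases split, since ACSL4 rose (log2 0.72 ± 0.16, adjusted p = 0.00363) and ACSL1 fell (log2 -0.89 ± 0.14, adjusted p = 0.000608). Of 20 genes of fatty acid synthesis 4 fell (20.0%) and 1 rose (5.0%), beside 11.9% and 15.2% of all genes. The share that fell was smaller than in cholesterol synthesis.

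Some stress and death genes rose. BMF, a BH3-only protein that promotes apoptosis, had 2.95, 16.3 and 16.7 CPM on 3D and 2.83, 2.59 and 2.47 CPM on plastic (log2 2.19 ± 0.48, adjusted p = 0.0043). It was barely above plastic in 3D replicate 42. TP53INP1, a p53-induced gene, had 22.4, 36.8 and 40.1 CPM on 3D, against 8.73, 8.88 and 13.8 CPM on plastic (log2 1.66 ± 0.26, adjusted p = 0.00051). Of 29 genes of the p53 and cell death list 8 rose (27.6%) and 1 fell (3.45%), beside 15.2% and 11.9% of all genes. On this list 4 rose without plastic replicate 4 and 5 without plastic replicate 6. NDRG1, which hypoxia induces, had 93.0, 238 and 313 CPM on 3D and 77.0, 76.7 and 77.9 CPM on plastic (log2 1.48 ± 0.29, adjusted p = 0.00233). In the hypoxia and glycolysis list 10 of 34 genes rose (29.4%, beside 15.2% of all genes) and 4 fell (11.8%, the share of all genes being 11.9%). The fallen members were LDHA, TPI1, GPI and ALDOA, and none of these 4 calls was left with the close pair as 1 library or without 3D replicate 4. Without 3D replicate 6 there was 1, without plastic replicate 4 there were 2, and without Kuramochi plastic replicate 4 there were 7. The number that rose was 6 with the close pair or without 3D replicate 4, and 5 without 3D replicate 6 or plastic replicate 4. Of 25 genes of the unfolded protein response 8 rose (32.0%, beside 15.2% of all genes) and none fell. SEL1L, which helps clear misfolded proteins from the endoplasmic reticulum, led them with 163, 161 and 156 CPM on 3D and 102, 58.2 and 82.5 CPM on plastic (log2 0.99 ± 0.18, adjusted p = 0.00159).

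Some lineage and epithelial genes moved, in both directions. PAX8, a transcription factor of the Mullerian lineage, rose with 254, 321 and 330 CPM on 3D and 168, 188 and 182 CPM on plastic (log2 0.75 ± 0.11, adjusted p = 0.00039). SOX17, a partner of PAX8 in this lineage, fell to 83.7, 82.0 and 83.1 CPM on 3D, against 133, 166 and 133 CPM on plastic (log2 -0.80 ± 0.18, adjusted p = 0.00468). KRT18, a keratin of simple epithelia, had 852, 713 and 731 CPM on 3D and 1299, 1679 and 1329 CPM on plastic (log2 -0.91 ± 0.19, adjusted p = 0.00327). ELF3, an epithelial transcription factor, rose with 208, 298 and 320 CPM on 3D and 104, 108 and 104 CPM on plastic (log2 1.39 ± 0.27, adjusted p = 0.00249). MUC4, a membrane mucin, rose 8.83-fold with 30.6, 69.6 and 60.0 CPM on 3D and 3.75, 7.96 and 6.41 CPM on plastic (adjusted p = 2.85e-05). Among 22 epithelial and ovarian cancer lineage markers 6 rose (27.3%), 3 fell (13.6%) and 13 passed neither test, beside 15.2% and 11.9% of all genes. With the replicate block 9 of these markers rose and 4 fell. Of 52 keratin and epithelial junction genes 6 rose (11.5%), 4 fell (7.69%) and 42 passed neither, so both shares were below those of all genes. The number that rose on that list was 14 with the replicate block and 2 without plastic replicate 4. RARB, a retinoic acid receptor and itself a retinoic acid target, had 3.27, 2.52 and 2.64 CPM on 3D and 0.635, 0.537 and 0.844 CPM on plastic (log2 2.06 ± 0.26, adjusted p = 0.000123). DHRS3, which reduces retinal and is a target too, had 11.6, 6.50 and 6.84 CPM on 3D and 0.635, 0.775 and 0.594 CPM on plastic (log2 3.63 ± 0.84, adjusted p = 0.00782). Both were highest in replicate 42 on 3D.

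**Figure D4:**
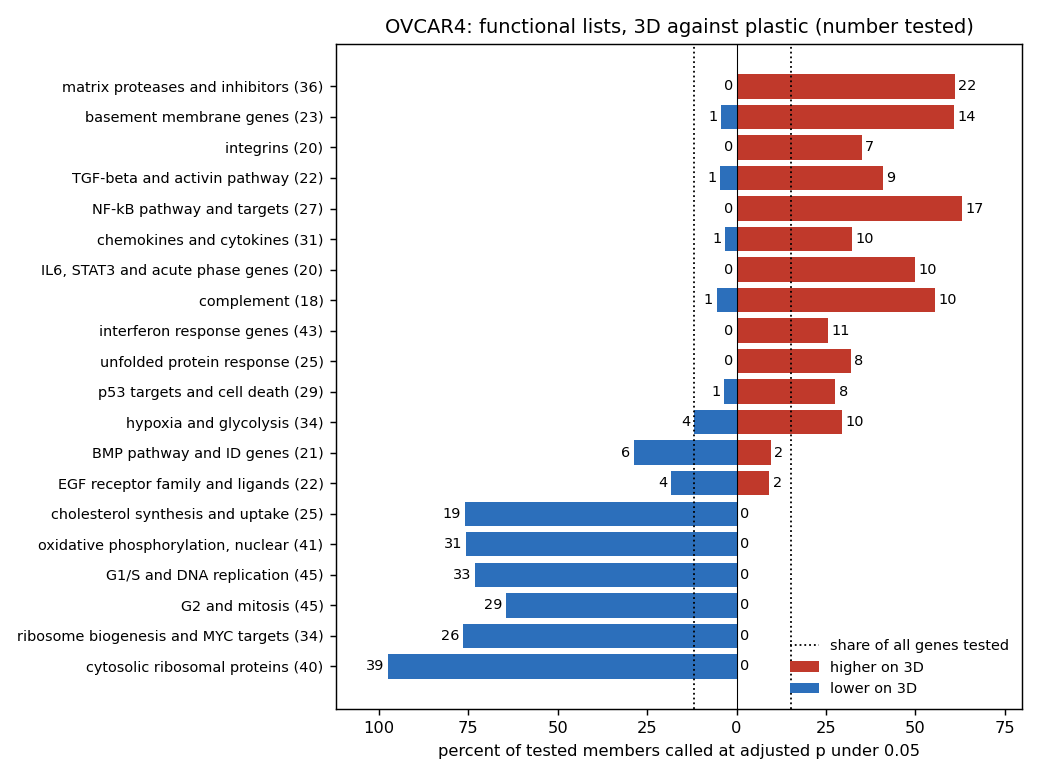
Percent of the tested members of each functional list (number tested in parentheses) that rose (red, right) or fell (blue, left) on 3D in OVCAR4 at an adjusted p under 0.05, with the number of genes at each bar and dotted lines at the 15.2% and 11.9% of all tested genes. Among the 27 NF-kB genes 17 rose and none fell, among the 31 chemokines and cytokines 10 rose and 1 fell, and no member of the lists of cholesterol synthesis, nuclear respiratory genes, cell division and ribosomes rose.

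Some changes were tested against those of the other lines, whose own changes came from separate control libraries. The passage range also differed by line. The change in OVCAR4 differed from that in Kuramochi for 176 genes (0.799% of all tested) and from that in OVCAR8 for 889 genes (4.04%). With the replicate block the first count was 322. It differed from both lines in the direction of the OVCAR4 change for 52 genes (0.236%), of which 44 rose in OVCAR4, 8 fell, and 23 averaged 1 CPM or more on plastic. The count of 52 lay between 22 and 99 without any 1 of the OVCAR4 libraries or any 1 of the OVCAR8 libraries other than 3D replicate 4. The count of 176 lay between 79 and 113 without replicate 4 or 6 of either OVCAR4 culture or without Kuramochi plastic replicate 4. The count of 889 lay between 400.0 and 571 without OVCAR4 plastic replicate 4, either of the close 3D replicates 4 and 6, OVCAR8 3D replicate 61 or 62, or any 1 OVCAR8 plastic library, and was 1488 without Kuramochi plastic replicate 2. SYTL2, which tethers vesicles to membranes, had 51.4, 79.5 and 83.4 CPM on 3D and 11.5, 6.20 and 6.87 CPM on plastic in OVCAR4 (log2 3.13 ± 0.23, adjusted p = 1.32e-06), and its log2 fold change was 1.45 in Kuramochi and 0.95 in OVCAR8. SH3PXD2A, the invadopodia scaffold TKS5, had 5.41, 9.34 and 9.88 CPM on 3D and 0.953, 0.865 and 1.19 CPM on plastic (log2 3.03 ± 0.23), beside 0.70 in Kuramochi and -0.18 in OVCAR8. SYTL3, a relative of SYTL2, was even across libraries, with 19.5, 18.01 and 20.6 CPM on 3D and 5.30, 4.95 and 5.06 CPM on plastic (log2 1.92 ± 0.18). The rise of each of these genes was larger in OVCAR4 than in either other line by the test of the difference. The fall of HHEX was likewise larger, since its log2 fold change was -0.36 in Kuramochi and -0.24 in OVCAR8. CXCL1 rose in OVCAR8 (log2 2.88) and had a log2 fold change of 1.02 in Kuramochi, against its fall in OVCAR4. ITGB6 was not in this group: the adjusted p of its difference was 0.305 from Kuramochi and 0.336 from OVCAR8.

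**Figure D5:**
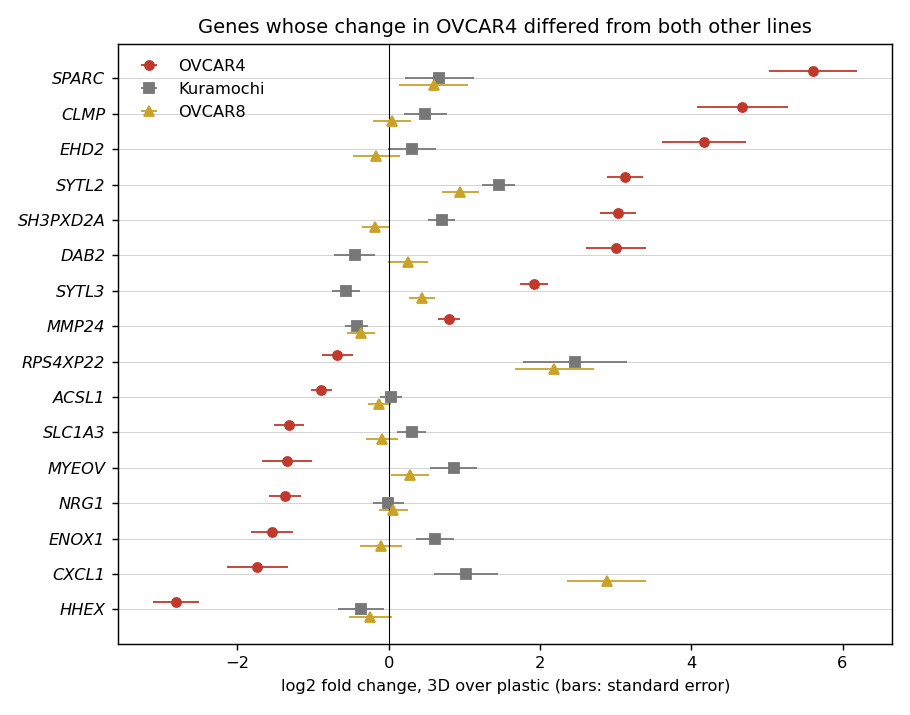
Log2 fold change on 3D over plastic (x axis, bars are standard errors, 3 libraries a culture) in OVCAR4, Kuramochi and OVCAR8 of the 16 named genes whose change in OVCAR4 differed from both other lines. SPARC reached 5.61 in OVCAR4 beside 0.67 and 0.60 in the other lines, and CXCL1 stood at -1.73 in OVCAR4 beside 1.02 and 2.88.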

How the data were processed

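RNA was sequenced as stranded libraries of polyadenylated RNA. Per the submitters' processing notes, reads were handled with Trimmomatic 0.33, TopHat2 2.1.0, HTSeq and DESeq2 1.12.3 on GRCh38. The authors deposited raw counts per Ensembl gene ID, and strand use in counting is not stated in the sources at hand. The study's own fold changes were not used. Of 58288 IDs, 57532 matched the GENCODE annotation used here for names, biotypes and exon lengths, and they held 99.752% of the counts. All 18 libraries held between 28415048 and 43142540 counts.

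Counts were filtered with filterByExpr (minimum count 10), scaled by TMM and fitted as 6 groups of line and culture in edgeR 4.0.16 (R 4.3.3, quasi-likelihood, robust), with Benjamini-Hochberg adjustment over all genes tested. A call needed an adjusted p under 0.05 and, where stated, a 2-fold change. Standard errors were taken as the size of the log2 fold change over the root of F. The test was checked on simulated data. Whether the replicate numbers pair the OVCAR4 samples is not settled, and the main fit has no block. Deviations of 3D and plastic libraries of the same number correlated at 0.459, 0.138 and 0.247 for replicates 42, 4 and 6. These values met the rule of every pair over 0.1. Unlike numbers correlated higher for 3D 4 with plastic 6 (0.331) and 3D 6 with plastic 4 (0.302). The study describes 3 independent experiments per line. Alternatives were the replicate block, the close pair as 1 sample, RLE factors, TMM factors from expressed genes, no filter, separate fits per line, DESeq2 1.42.0, a test against 2-fold, a minimum of 5 CPM, each library left out, and a length and GC correction chosen after seeing the data.

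The members, functional lists and tests were chosen with earlier results of these data known. Genes were named by a rule. It took the largest rises and falls with no overlap between the cultures, whose calls and folds held without any 1 OVCAR4 library. It also took the most abundant calls and the clearest differences from both other lines. The abundant calls under 1 CPM on plastic also had to show no overlap. From each list it took up to 4 members by adjusted p and those against the direction of the list. XIST and chromosome Y were left out. LDHA, TPI1, GPI, ALDOA, DUSP4 and MT-ND5 were named because the counts they belong to were small, after their values were seen.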

Additional observations from a re-analysis of the deposited data

Results flagged for a closer look

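The change on 3D in OVCAR4 differed from the change in both other lines for 16 of the named genes by the test of the difference (edgeR, adjusted over all genes). Each pair of values below is the log2 difference of the OVCAR4 change minus the Kuramochi change and then minus the OVCAR8 change. Among genes that rose in OVCAR4, the differences were 4.94 and 5.02 for SPARC, 4.19 and 4.63 for CLMP, a cell adhesion molecule, and 3.86 and 4.33 for EHD2, a membrane-shaping ATPase of caveolae. They were 3.45 and 2.74 for DAB2, an endocytic adaptor, and 2.33 and 3.21 for SH3PXD2A. They were 2.48 and 1.49 for SYTL3, 1.67 and 2.18 for SYTL2, and 1.22 and 1.17 for MMP24, a membrane-type matrix protease. CLMP had 0.34, 1.72 and 1.42 CPM on 3D and 0.032, 0.030 and 0.062 CPM on plastic. EHD2 had 0.941, 4.5 and 4.28 CPM on 3D and 0.095, 0.238 and 0.187 CPM on plastic. Both were near 0 on plastic, and like SPARC they were far lower in 3D replicate 42 than in 4 and 6. The part of host cell RNA in these differences was not tested.

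Among genes that fell in OVCAR4, the differences were -2.45 and -2.57 for HHEX and -2.76 and -4.61 for CXCL1. They were -2.20 and -1.63 for MYEOV, -2.15 and -1.43 for ENOX1, and -1.62 and -1.23 for SLC1A3, a glutamate transporter. They were -1.36 and -1.43 for NRG1 and -0.93 and -0.77 for ACSL1. For RPS4XP22, a pseudogene of RPS4X that can share reads with its parent, they were -3.14 and -2.86, its call in OVCAR4 was not kept in every fit without 1 library, and its counts are uncertain.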

How the results depend on the processing

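The 1793 genes changed by 2-fold numbered between 1206 and 2146 under the other planned settings and the length and GC correction (1692), except for 148 in the test against 2-fold. Without 1 library they numbered between 893 and 2236. The 919 expressed genes numbered 50 in the test against 2-fold and 494 with a minimum of 5 CPM on plastic, and between 506 and 1269 without 1 library. With the replicate block the 2 counts were 1980 and 1008. Of the 1793 genes, 1682 were called with the replicate block, 1620 by DESeq2, 1271 with the length and GC correction, 1176 with the close pair as 1 library and 841 without plastic replicate 4.

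Genes whose change differed from Kuramochi (176) numbered 788 with no low-count filter, 85 with separate fits per line, 322 with the replicate block, 503 with the block and the length and GC correction, 88 with the close pair as 1 library and 429 in DESeq2, and between 79 and 255 without 1 library. Those that differed from OVCAR8 (889) numbered 1850 with no filter, 2011 with separate fits, 1881 with the block and correction, 423 with the close pair and 1688 in DESeq2, and between 400.0 and 1488 without 1 library. Those that differed from both (52) numbered 188, 26, 125, 27 and 116 under these settings in that order, and between 22 and 99 without 1 library. The cause of these moves was not tested.

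Of 245 named genes with a call, 193 lost it in the test against 2-fold and at most 39 in any other single setting (without plastic replicate 4). The 1 reversed value was MT-CO3, not called, at 0.0338 with the length and GC correction and 0.0376 with the block and correction. With 3 libraries a culture, 2 of them close, and host RNA not separable from cancer cell RNA, single list counts near the background are not firm.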
